A study of Mus musculus with 12 samples.

Results

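The hippocampal miRNA levels of mice without the P2X7 receptor were compared with those of wild-type (wt) mice, pooling animals that had and had not undergone status epilepticus (SE), to describe the part of the genotype difference that did not depend on the seizures. All 12 samples of the series entered the comparison, 6 P2rx7-/- and 6 wt. Of 619 miRNA assays on the TaqMan OpenArray, a high-density qPCR plate, the 335 with a threshold cycle (Ct) in all 12 samples were analyzed. No miRNA passed the adjusted threshold for a genotype difference, and the differences seen in the control mice and in the post-SE mice were not correlated across miRNAs.

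The mice were C57BL/6 at an age of 8 weeks per the labels and male per the methods. Each genotype was studied without and with SE, in 4 groups of 3 samples. The control groups of wt and of P2rx7-/- mice were injected with vehicle, and the post-SE groups of both genotypes with kainic acid (KA) into the basolateral amygdala. Mice of all 4 groups received the anticonvulsant lorazepam. Tissue was collected 8 h after the injection from the injected side, and the hippocampi of 2 mice were combined into 1 sample. The P2rx7-/- mice lack exon 2 of P2rx7 in every cell (a constitutive knockout), so the comparison cannot be assigned to a cell type or to a period of life. P2rx7 lies on mouse chromosome 5 (chr5:122643927-122692336, GRCm38.p6). Its transcript and protein were not measured on the plate, so the genotype labels could not be checked against the deleted gene. In whole hippocampus, fewer cells of a type and less miRNA per cell cannot be told apart.

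The P2X7 receptor is an ATP-gated cation channel that in the brain is found mainly on microglia. Extracellular ATP, released from active or injured cells, opens it, and potassium efflux through the channel drives the NLRP3 inflammasome and the release of interleukin-1β. miRNAs are short RNAs that guide the Argonaute complex to mRNAs, mostly by pairing of their seed, bases 2 to 8 from the 5′ end, and thereby lower translation and mRNA stability. miRNAs with one seed are therefore expected to share many targets, and several families on the plate have more than 1 measured member.

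The mature mouse sequences below belong to the miRNAs on which the comparison turns, and the capitals mark the seed. They are the RefSeq sequences with the positions of assembly GRCm38.p6. The assays carry human (hsa), mouse (mmu) or rat (rno) names and were matched by name to 28 assays of these families. The first set holds the miRNAs with some of the lowest genotype p-values and no measured relative of their seed, and miR-155 and miR-22, which stand for the inflammation and the P2rx7-targeting lists.
miR-19a-3p: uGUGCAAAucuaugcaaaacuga
miR-182-5p: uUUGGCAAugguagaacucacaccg
miR-338-3p: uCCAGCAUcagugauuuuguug
miR-542-5p: cUCGGGGAucaucaugucacga
miR-155-5p: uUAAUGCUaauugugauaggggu
miR-22-3p: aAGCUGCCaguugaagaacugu
The second set holds families, shown so that members with one seed can be set side by side.
miR-25-3p: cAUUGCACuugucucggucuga
miR-32-5p: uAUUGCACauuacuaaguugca
miR-92a-3p: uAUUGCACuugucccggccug
miR-29b-3p: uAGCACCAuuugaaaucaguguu
miR-29c-3p: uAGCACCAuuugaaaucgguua
miR-148a-3p: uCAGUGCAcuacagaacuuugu
miR-148b-3p: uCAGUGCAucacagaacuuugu
miR-152-3p: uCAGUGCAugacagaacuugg
miR-190a-5p: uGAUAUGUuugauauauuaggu
miR-190b-5p: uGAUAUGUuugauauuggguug
miR-181a-5p: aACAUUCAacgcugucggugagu
miR-181c-5p: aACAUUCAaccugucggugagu
miR-98-5p: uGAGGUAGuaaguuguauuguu
let-7c-5p: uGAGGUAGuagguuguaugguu
let-7e-5p: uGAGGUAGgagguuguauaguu
miR-19a lies in the miR-17-92 cluster (chr14:115044048-115044070, plus strand). miR-25 lies on the minus strand of the chromosome of P2rx7 (chr5:138165332-138165353), next to miR-93 and miR-106b in an intron of Mcm7. miR-182 (chr6:30165962-30165986), miR-190a (chr9:67236700-67236721) and miR-338-3p (chr11:120014781-120014802) lie on minus strands, the last of these in an intron of Aatk. miR-29c (chr1:195037600-195037621) and miR-148b (chr15:103285185-103285206) lie on plus strands.

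Levels are given as log2 values relative to the mean of the 335 miRNAs in the same sample, so that 0 is the mean Ct of the sample and 1 is a Ct 1 cycle earlier. A difference between samples is in log2 units. The number of miRNA assays with a Ct ranged from 470 to 538 per sample. It averaged 506 ± 26.7 (SD, n = 6) in wt and 510 ± 17.6 (SD, n = 6) in P2rx7-/- samples, a difference of 3.83 (two-sided exact permutation test within treatment, p = 0.78). One wt library stood apart from the rest. In wt control replicate 1, 72 of the 335 miRNAs were over 2 cycles away from the median level of the remaining samples, against 3 to 28 in the other 11. Values are therefore also given without it. Neuron-enriched miRNAs were detected in 87.7% of assay and sample pairs, but those of the muscle, liver and pancreas list were detected in 80.6%, so that detection alone did not tell hippocampus from other tissues. The median level of the 9 neuron-enriched assays measured in all samples ranged from 1.27 to 2.16 over the samples, and that of the 6 muscle, liver and pancreas assays from -0.05 to 1.77. These ranges overlapped, and levels of different assays are not comparable, so the tissue was not established from these lists.

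The genotype difference with treatment as a covariate was tested with limma and Benjamini-Hochberg adjustment over the 335 miRNAs. The number below an adjusted p of 0.05 was 0 (0.0%), and the lowest adjusted p was 0.584. At an unadjusted p below 0.05 there were 17 (5.07% of those tested), of which 15 (4.48%) were lower and 2 (0.597%) were higher in P2rx7-/- samples. Scaling with the snoRNAs left 4 lower and 1 higher, and weighting samples by their spread gave 18 lower and 7 higher, 10 of them among the 17. Over all 335, 173 (51.6%) were lower and 162 (48.4%) were higher by any amount, with a median difference of -0.01 and a median absolute difference of 0.25. The split moved with the scaling: it was 128 lower (38.2%) and 207 higher with the median Ct, which shifted the median to 0.10, and 192 lower (57.3%) and 143 higher with all detected assays. The deposited fold changes gave 200 lower (59.7%) and 135 higher, with a median of -0.08. The 95% interval of a difference extended a median of 0.79 to either side. The interval lay within 1 log2 unit of 0 for 148 miRNAs (44.2%), so for the others a 2-fold difference in at least one direction is within the error of 6 against 6 samples. Without wt control replicate 1, 0 passed the adjusted threshold (lowest adjusted p 0.949) and 10 had an unadjusted p below 0.05, 9 of which were among the 17.

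**Figure D1:**
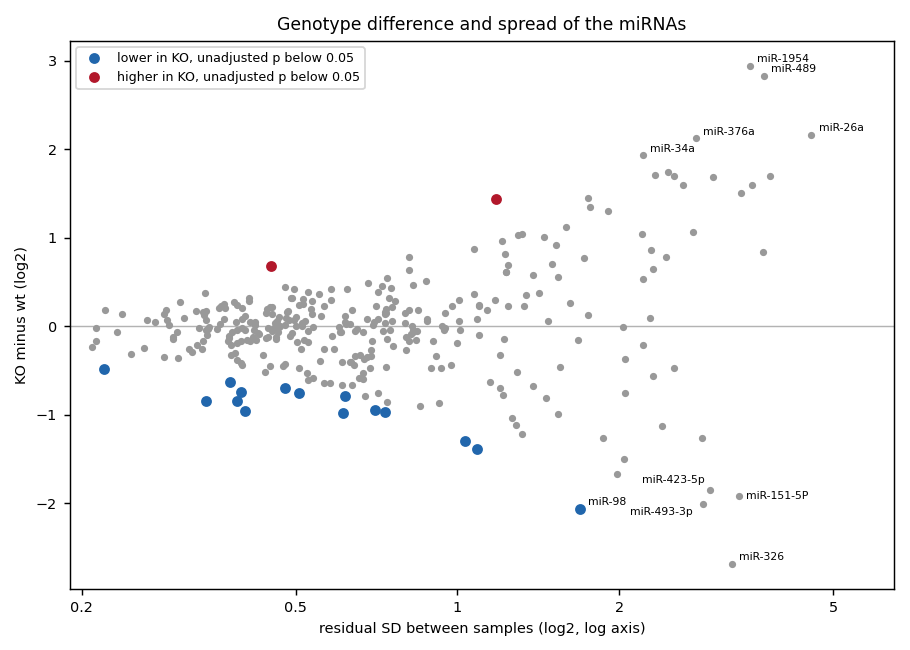
Each point is 1 of the 335 miRNAs, with its P2rx7-/- (KO) minus wt difference (log2, vertical axis) against its residual SD between samples (log2, log axis). The miRNAs with an unadjusted p below 0.05 (15 blue, 2 red) lie mostly at small spreads, whereas the largest differences, such as 2.94 for miR-1954 and -2.68 for miR-326, lie at the largest spreads.

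The miRNA with the lowest p was miR-467a, of the rodent-specific Sfmbt2 cluster. It measured 0.29, 0.26 and 0.42 in wt control and -0.33, -0.84 and -1.49 in P2rx7-/- control samples. After SE it measured -0.59, 0.10 and 0.39 in wt and -0.59, -0.67 and -0.96 in P2rx7-/- samples. The genotypes did not overlap within either treatment, although after SE the lowest wt and the highest P2rx7-/- sample nearly touched. The difference was -0.96 (SE 0.25, limma, unadjusted p = 0.00302, adjusted p = 0.584), a ratio of 0.514. It was -0.94 without wt control replicate 1, and with samples weighted by their spread, which gave wt control replicate 1 a weight of 0.142, it was -0.99 with an adjusted p of 0.0429. The plate holds more than 1 assay under similar names of this cluster, and which arm the assay reads is not given in the sources used here. These assays did not share its direction. By the fold change thresholds used further below, miR-467a was called down, but miR-467b, miR-467e and miR-467F were called up. Their differences were 1.03 (SE 0.69), 0.06 and 0.78 (SE 0.45).

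miR-182, a miRNA of sensory and epithelial cells that is also induced in some immune cells, measured -2.78, -3.18 and -2.47 in wt control and -4.25, -3.79 and -3.79 in P2rx7-/- control samples. After SE the values were -2.86, -2.45 and -3.18 in wt and -3.31, -3.69 and -3.17 in P2rx7-/- samples. The genotypes were apart in the control samples and met at the lowest wt sample after SE. The difference was -0.85 (SE 0.23, limma, unadjusted p = 0.00349, adjusted p = 0.584). It was -0.81 without wt control replicate 1.

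miR-19a, of the growth-promoting miR-17-92 cluster, measured 1.62, 1.07 and 1.19 in wt control and 0.22, 0.58 and -0.38 in P2rx7-/- control samples. It measured 0.51, 0.80 and 0.92 in wt post-SE and 0.29, 0.59 and -0.23 in P2rx7-/- post-SE samples. All P2rx7-/- control samples were below all wt control samples, and 1 P2rx7-/- post-SE sample reached into the wt range. The difference was -0.84 (SE 0.25, limma, unadjusted p = 0.00608, adjusted p = 0.679). It was -0.73 without wt control replicate 1. The 11 measured members of the miR-17-92 and paralogous clusters did not share this value: 4 were lower and 7 higher, with a median difference of 0.03, and of 0.07 without wt control replicate 1.

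**Figure D2:**
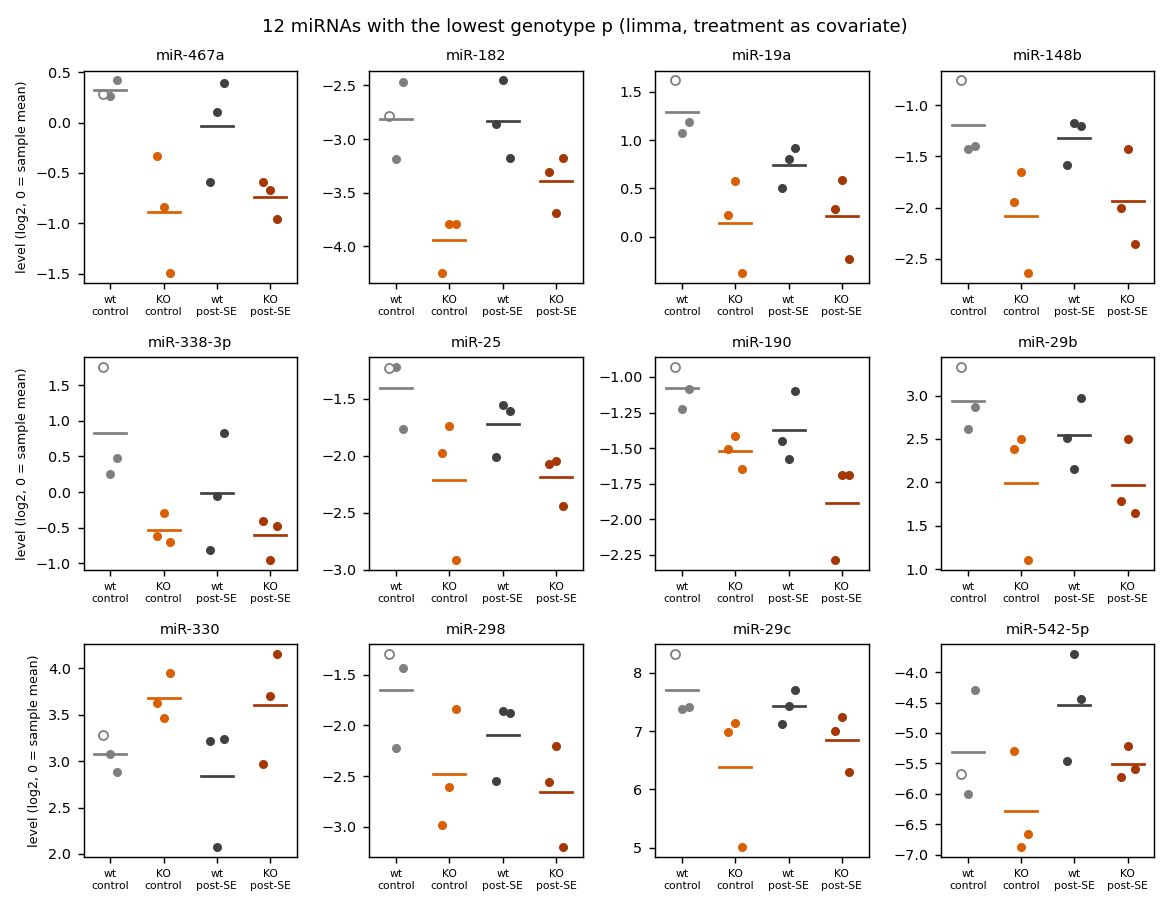
Level of the 12 miRNAs with the lowest genotype p in every sample (log2, 0 is the mean of the 335 miRNAs of the sample), by group (wt in grey, P2rx7-/- (KO) in orange), with bars at the group means and wt control replicate 1 as an open circle. In 11 of the 12 the KO mean is below the wt mean under both treatments, and for miR-330 it is above.

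The other 9 of the 12 lowest p-values belonged to miR-148b, miR-338-3p, miR-25, miR-190, miR-29b, miR-330, miR-298, miR-29c and miR-542-5p. All had an adjusted p of 0.892 by limma. miR-338-3p, which is enriched in oligodendrocytes and promotes their differentiation, had a lowest, median and highest level of -0.82, 0.36 and 1.75 in wt and of -0.95, -0.54 and -0.29 in P2rx7-/- samples. The difference was -0.98 (SE 0.35), and -0.73 without wt control replicate 1, which held the highest value. Its other strand, miR-338-5p, differed by -0.59 (SE 0.38), and the 4 measured oligodendrocyte miRNAs had a median difference of -0.18 with 2 lower and 2 higher, and of -0.37 without that sample. miR-330 was the only one of the 12 that was higher in P2rx7-/- samples: its lowest, median and highest level was 2.08, 3.15 and 3.28 in wt and 2.97, 3.66 and 4.15 in P2rx7-/- samples, a difference of 0.68 (SE 0.27). Of the 6 P2rx7-/- samples, 5 were above every wt sample. miR-298 differed by -0.69 (SE 0.29). miR-542-5p, encoded on the X chromosome, differed by -0.97 (SE 0.41) at a low level, with wt samples from -6.0 to -3.70 and P2rx7-/- samples from -6.87 to -5.22.

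The miRNAs of the AUUGCAC seed did not share 1 genotype value. miR-25, which is processed together with miR-93 and miR-106b, measured -1.23, -1.22 and -1.77 in wt control, -1.98, -1.73 and -2.92 in P2rx7-/- control, -2.01, -1.55 and -1.61 in wt post-SE and -2.07, -2.04 and -2.44 in P2rx7-/- post-SE samples. Its difference was -0.63 (SE 0.24, limma, unadjusted p = 0.0244). miR-92, from the miR-17-92 cluster, differed by 0.00 (SE 0.30). miR-32 was the second miRNA with an unadjusted p below 0.05 in the higher direction, at 1.44 (SE 0.63, limma, unadjusted p = 0.0426). It was detected at late cycles. Its level was variable, from -7.71 to -4.30 in wt and from -5.28 to -2.61 in P2rx7-/- samples. The difference was 1.05 without wt control replicate 1. The difference between family members was not tested.

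The miR-29 family, which represses collagen genes and, in neurons, pro-apoptotic BH3-only genes, was detected at early cycles. miR-29c measured 8.32, 7.38 and 7.41 in wt control, 6.99, 7.14 and 5.02 in P2rx7-/- control, 7.12, 7.44 and 7.70 in wt post-SE and 6.999, 7.25 and 6.30 in P2rx7-/- post-SE samples. The lowest values were those of replicate 3 of each P2rx7-/- group. The difference was -0.95 (SE 0.39) for miR-29c and -0.75 (SE 0.30) for miR-29b, which has the same seed and whose lowest values, 1.11 and 1.65, came from the same samples. The other strands, miR-29b* at 0.20 (SE 0.41) and miR-29c* at -0.06 (SE 0.21), did not show these values. Without wt control replicate 1 the differences were -0.77 and -0.65, and over all samples left out in turn they ranged from -1.08 to -0.60 and from -0.89 to -0.54.

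miR-148b and miR-148a, which differ from each other at few bases outside the CAGUGCA seed and repress DNA methyltransferase Dnmt1, differed by -0.75 (SE 0.25) and -0.60 (SE 0.31). miR-148b ranged from -1.59 to -0.76 in wt and from -2.64 to -1.43 in P2rx7-/- samples, and 5 of the 6 P2rx7-/- samples were below every wt sample. miR-152 of the same seed differed by 0.05 (SE 0.26), and the other strand of miR-148b by -0.14 (SE 0.21). The same 2 samples, P2rx7-/- control replicate 3 and P2rx7-/- post-SE replicate 3, held the lowest values of miR-148a, at -1.42 and -0.69, and of miR-148b, at -2.64 and -2.36.

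These 2 samples were also the 2 lowest of all 12 for miR-467a, miR-19a, miR-25, miR-181a, let-7c and let-7e. For miR-182, miR-338-3p, miR-190, miR-298 and miR-542-5p they were not the 2 lowest. They were again the 2 lowest for miR-181c and miR-98. miR-181c, of a family that tunes T cell receptor signalling and microglial cytokine production, measured -2.99 and -1.60 there, against -0.07 to 0.29 in the other 4 P2rx7-/- and -0.08 to 1.19 in the 6 wt samples. Its difference was -1.29 (SE 0.55), and that of miR-181a was -0.67 (SE 0.36). miR-98, a let-7 family member on the X chromosome, measured -5.11 and -1.04 in the same samples, against 0.03 to 0.53 in the other P2rx7-/- and 0.42 to 2.60 in the wt samples. Its difference was -2.06 (SE 0.89), and -1.15 without P2rx7-/- control replicate 3. What the 2 samples share beyond genotype and number was not tested. Among the 7 measured let-7 guide strands, which hold back proliferation and Lin28, 4 were lower and 3 higher, with a median difference of -0.44, which became -0.03 without wt post-SE replicate 1. let-7e differed by -0.91 (SE 0.47), let-7c by -0.44 (SE 0.25) and let-7a by -0.75 (SE 1.07), whereas let-7b, let-7f and let-7g differed by 0.09, 0.08 and 0.02.

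A miRNA was counted as separated when all 3 P2rx7-/- samples lay on one side of all 3 wt samples in the control mice and again, on the same side, in the post-SE mice. This held for 4 miRNAs that were lower in P2rx7-/- samples (1.19% of 335), miR-190, miR-365, miR-384-3p and miR-467a, and for 0 that were higher (0.0%). The number was 0 when samples were scaled with the median Ct, with all detected assays or with the snoRNAs, and 1 with quantile scaling. Leaving out wt post-SE replicate 1, P2rx7-/- post-SE replicate 2 or P2rx7-/- post-SE replicate 3 gave 13, 10 and 8. None of the 335 had all 6 samples of one genotype below all 6 of the other, and without wt post-SE replicate 1 there were 6. Leaving out a sample loosens both rules, because fewer samples have to be apart. These counts can then only stay or rise, so a higher count does not show a clearer genotype difference. miR-190, from an intron of the talin gene Tln2, had the smallest spread of the 4. It measured -0.93, -1.22 and -1.09 in wt control, -1.50, -1.41 and -1.65 in P2rx7-/- control, -1.45, -1.57 and -1.10 in wt post-SE and -2.29, -1.69 and -1.69 in P2rx7-/- post-SE samples. The difference was -0.48 (SE 0.19, limma, unadjusted p = 0.0252, adjusted p = 0.892) and ranged from -0.52 to -0.39 when any 1 sample was omitted. The 2 assays for its relative miR-190b, with the same seed, differed by -0.06 (SE 0.36) and 0.36 (SE 0.58).

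The separation of the other 2 was narrow outside 1 sample. miR-384-3p, a neuron-enriched miRNA, measured 2.03, -0.11 and -0.09 in wt control, -0.36, -0.45 and -1.10 in P2rx7-/- control, -0.41, -0.47 and -0.11 in wt post-SE and -0.66, -0.60 and -0.71 in P2rx7-/- post-SE samples. Its difference was -0.79 (SE 0.38), and -0.42 without wt control replicate 1. miR-365, which has been linked to inflammatory and hypertrophic signalling, measured 5.42, 1.00 and 1.04 in wt control, 0.90, 0.93 and 0.59 in P2rx7-/- control, 0.85, 0.92 and 1.06 in wt post-SE and 0.19, 0.84 and 0.58 in P2rx7-/- post-SE samples. Its difference was -1.04 (SE 0.67), and -0.32 without wt control replicate 1. For all 4 the two-sided exact permutation p was 0.005, the smallest that 400 arrangements of the genotype labels within treatment can give. These 4 were chosen for not overlapping, so that value is a description of the choice and supports nothing.

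By the fold change (FC) rule of the methods, applied to the mean of the 6 P2rx7-/- FCs relative to the wt samples of the same treatment, 63 miRNAs (18.8%) were above 1.5 and 16 (4.78%) were below 0.6, together 23.6% of the 335. This arithmetic mean weighs high FCs more than low ones, and with geometric means 39 were up and 33 down. Many of the 63 up calls rested on few P2rx7-/- samples, and many of the 16 down calls on wt control replicate 1. Of the 63 up, 1 had 5 or more of its 6 P2rx7-/- samples above 1.5, which was miR-32 with 5, and 28 fell to 1.5 or below once the highest of the 6 FCs was left out. For 7 of the 63 the log2 difference was in the opposite direction. Of the 16 down, 4 had 5 or 6 of their 6 samples below 0.6, and 2 had only 1 or 2. The 4 were miR-326, miR-300, miR-339-5p and miR-770-5p. Their mean FCs became 0.593, 0.736, 0.827 and 0.652 without wt control replicate 1, which is part of their reference. Without wt control replicate 1, 56 were up, 49 of them among the 63, and 7 were down, all among the 16, and without P2rx7-/- post-SE replicate 2, 26 were down. By limma, 2 of the 63 and 9 of the 16 had an unadjusted p below 0.05, beside 17 (5.07%) of all 335. The number past the adjusted threshold was 0 in both. The calls and the p-values came from the same differences, so these numbers lend the calls no support.

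The 5 highest and 5 lowest differences were mostly set by 1 or 2 samples. miR-326, a brain-enriched miRNA of a β-arrestin gene, measured 8.84 in wt control replicate 1 and 8.46 in wt post-SE replicate 1, but between -0.26 and 0.96 in the other 10 samples. Its difference was -2.68 (SE 1.68). miR-493-3p, miR-151-5p and miR-423-5p measured 5.82, 8.84 and 5.41 in wt control replicate 1, each above every other sample, and their differences of -2.01, -1.91 and -1.85 became -0.48, -0.00 and -0.29 without it. The other strand of miR-423 differed by 0.02 (SE 0.24) and the other assay of miR-151 by -0.37 (SE 1.07).

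At the upper end, miR-26a, miR-376a and miR-34a measured -7.86, -6.11 and -5.76 in wt control replicate 1 and no lower than 5.14, 2.98 and 1.03 in the other 11 samples. Their differences of 2.16, 2.12 and 1.93 became -0.44, 0.55 and 0.70 without it. miR-34a, a p53 target, measured 3.51 and 2.75 in replicate 1 of the P2rx7-/- control and post-SE groups and from 1.03 to 1.90 in the other 9 samples. The 2 assays of miR-376a* differed by -0.04 and 0.11. miR-1954 and miR-489 measured 7.98 and 7.67 in P2rx7-/- control replicate 1, and at most -2.24 and -4.41 in the other 11 samples. Their differences were 2.94 (SE 1.82) and 2.83 (SE 1.94). A step of this kind in 1 sample of a qPCR plate was not tested for its source.

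**Figure D3:**
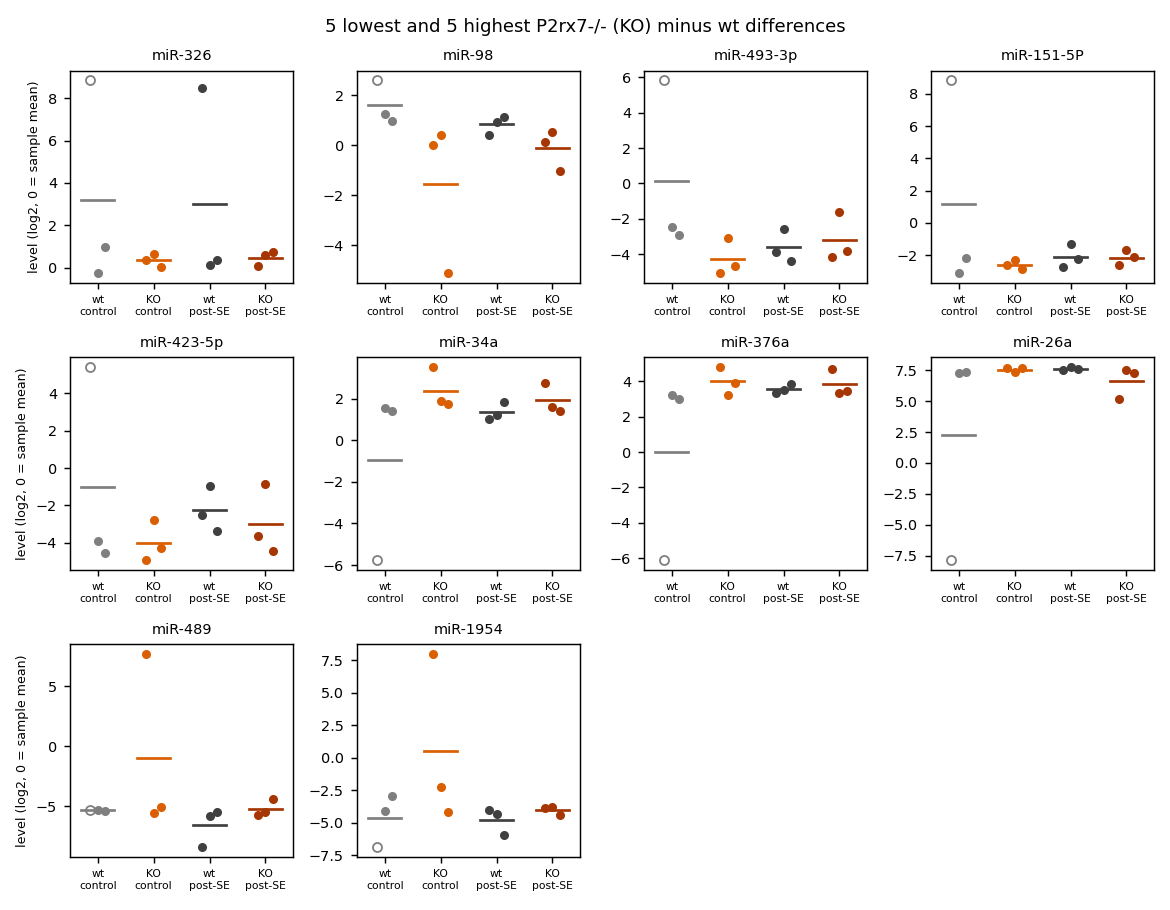
Level in every sample of the 5 miRNAs with the lowest and the 5 with the highest P2rx7-/- (KO) minus wt difference (log2, 0 is the mean of the 335 miRNAs of the sample), by group, with bars at the group means and wt control replicate 1 as an open circle. In 7 of the 10 panels wt control replicate 1 lies far from the other wt control samples, and in miR-489 and miR-1954 a single KO control sample does.

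The treatment-independent part was examined by setting the genotype difference in control mice beside that in post-SE mice, which share no samples. Across the 335 miRNAs, Pearson's r was -0.04 and Spearman's rho was -0.02, a description across miRNAs, which are not independent replicates and share the scaling of each sample. Both differences had the same sign for 153 miRNAs (45.7%), of which 82 were lower and 71 higher under both treatments. Without wt control replicate 1, r was -0.09, rho was -0.03 and 164 (49.0%) had the same sign. The median absolute difference was 0.45 in the control and 0.30 in the post-SE mice. In the 2 treatments taken alone, limma with adjustment over the 335 called 0 in control mice (20 at an unadjusted p below 0.05, 5.97%; lowest adjusted p 0.615) and 0 in post-SE mice (4, 1.19%; lowest adjusted p 0.999). The P2rx7-/- control samples lay wholly below the wt control samples for 35 miRNAs (10.4%) and above for 12 (3.58%), and after SE the numbers were 12 (3.58%) and 7 (2.09%).

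**Figure D4:**
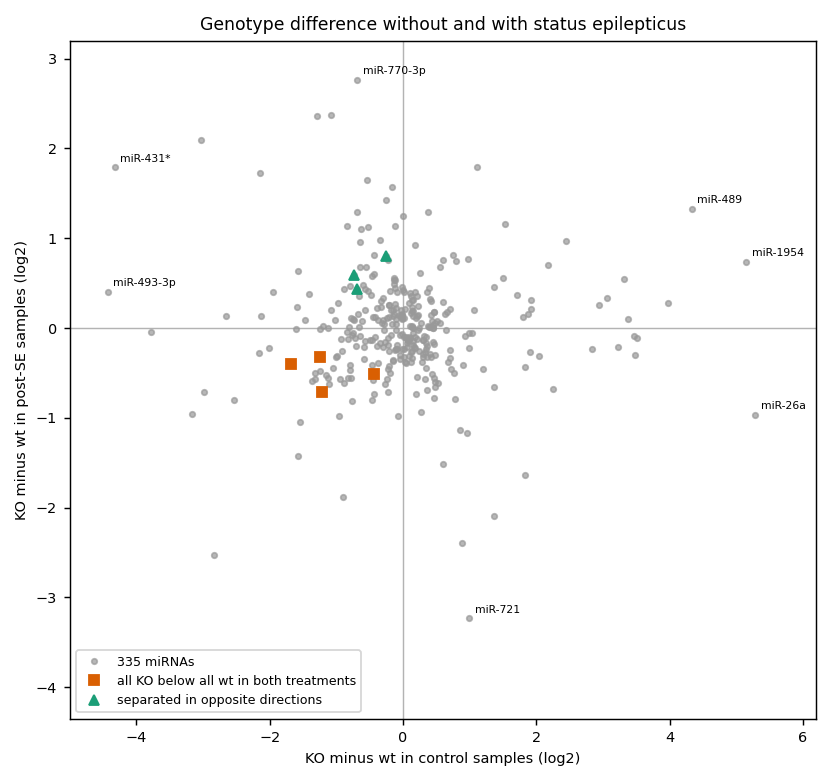
P2rx7-/- (KO) minus wt difference of each of the 335 miRNAs (log2) in control samples (horizontal axis) and in post-SE samples (vertical axis). The points do not follow a diagonal (Pearson's r of -0.04), the 4 squares are the miRNAs whose KO samples lay below all wt samples under both treatments, and the 3 triangles those separated in opposite directions.

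Of the 335 miRNAs, the FC rule called 71 up in control and 57 up in post-SE mice, with 21 in both. These were 29.6% of the 71, beside 57 of all 335, and 36.8% of the 57, beside 71 of all 335. The rule gave 52 and 15 down, with 5 in both. This was 9.62% of the 52, beside 15 of all 335, and 33.3% of the 15, beside 52 of all 335. The overlaps were not tested against these shares. The 5 were miR-181c, miR-98, miR-300, miR-326 and miR-542-5p. Among the 21 were miR-155, miR-330, miR-32, miR-34a, miR-489 and miR-1954. They also held miR-197 and miR-376b, although the post-SE log2 differences of these were -0.30 and -0.09. A further 7 miRNAs, among them let-7a and miR-30c, were up in control and down in post-SE mice, and 6, among them miR-493-3p and miR-431*, were down in control and up in post-SE mice. Without wt control replicate 1 these numbers were 4 and 8. Without that sample the numbers called in the same direction under both treatments were 15 and 2, without P2rx7-/- post-SE replicate 1 the first was 9, and without P2rx7-/- post-SE replicate 2 the second was 11. The interaction of genotype and treatment passed the adjusted threshold for 0 miRNAs (8 at an unadjusted p below 0.05, 2.39%; lowest adjusted p 0.851 by limma). Genotype, treatment and interaction accounted for a median of 4.77%, 5.66% and 5.65% of the variance of a miRNA, and each was the largest of the 3 for 113, 112 and 110 miRNAs.

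The 4 measured miRNAs reported to target P2rx7 had differences of both signs, with a median of -0.05, and of -0.41 without wt control replicate 1, against -0.01 and 0.02 over all miRNAs. miR-22, which represses P2rx7 in the hippocampus, was the most even, with a lowest, median and highest level of 2.66, 3.19 and 3.55 in wt and of 3.03, 3.14 and 3.33 in P2rx7-/- samples. The difference was 0.01 (SE 0.21, 95% interval -0.45 to 0.47), with the sign turned under quantile scaling (-0.06), all detected assays (-0.04) and the snoRNAs (-0.01), and its other strand differed by 0.04 (SE 0.28). miR-187 differed by -0.11 (SE 0.29) and miR-135a by -0.53 (SE 0.38). miR-150, abundant in lymphocytes, differed by 1.70 (SE 1.99) with a level of -6.76 in wt control replicate 1 and from 3.84 to 7.77 in all other samples, and by -0.46 without that sample.

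The inflammation and microglia list had 12 measured assays, of which 9 were higher and 3 lower in P2rx7-/- samples, beside 162 higher (48.4%) of all 335. The 9 are not independent, because they include both assays of miR-223, both of miR-146b, and miR-146b*. The median difference was 0.12, and 0.02 without wt control replicate 1, against -0.01 and 0.02 over all miRNAs. The number past the adjusted threshold was 0. An unadjusted p below 0.05 was seen for 1, miR-181c, beside 17 (5.07%) of all 335. miR-155, which promotes the pro-inflammatory state of microglia, measured 0.27, -0.44 and 0.34 in wt control, -0.94, 0.36 and 5.31 in P2rx7-/- control, -0.54, 0.95 and 1.79 in wt post-SE and 1.25, 1.11 and 3.32 in P2rx7-/- post-SE samples. The highest values were those of replicate 3 of each P2rx7-/- group, the samples that were lowest for miR-29c and miR-98, and the genotypes overlapped under both treatments. Its difference was 1.34 (SE 0.93, 95% interval -0.69 to 3.38), and 0.49 without P2rx7-/- control replicate 3. Both assays of miR-223, a myeloid miRNA, were higher, at 0.55 (SE 0.41) and 0.43 (SE 0.42).

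miR-21, induced in injured tissue and glia, differed by -0.75 (SE 0.40), and by -0.41 without wt control replicate 1, in which it measured 5.11. Its other strand, miR-21*, differed by 0.22 (SE 0.39). miR-142-3p, found in blood-derived cells and microglia, differed by 0.04 (SE 0.41). It stood at 2.85 and 2.72 in replicate 1 of the wt and the P2rx7-/- post-SE groups and at 0.81 to 1.35 in the other 10 samples. The 2 assays of miR-146b, a brake on Toll-like receptor signalling, differed by 0.01 (SE 0.28) and 0.07 (SE 0.29), and miR-146b* by 0.16 (SE 0.29).

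**Figure D5:**
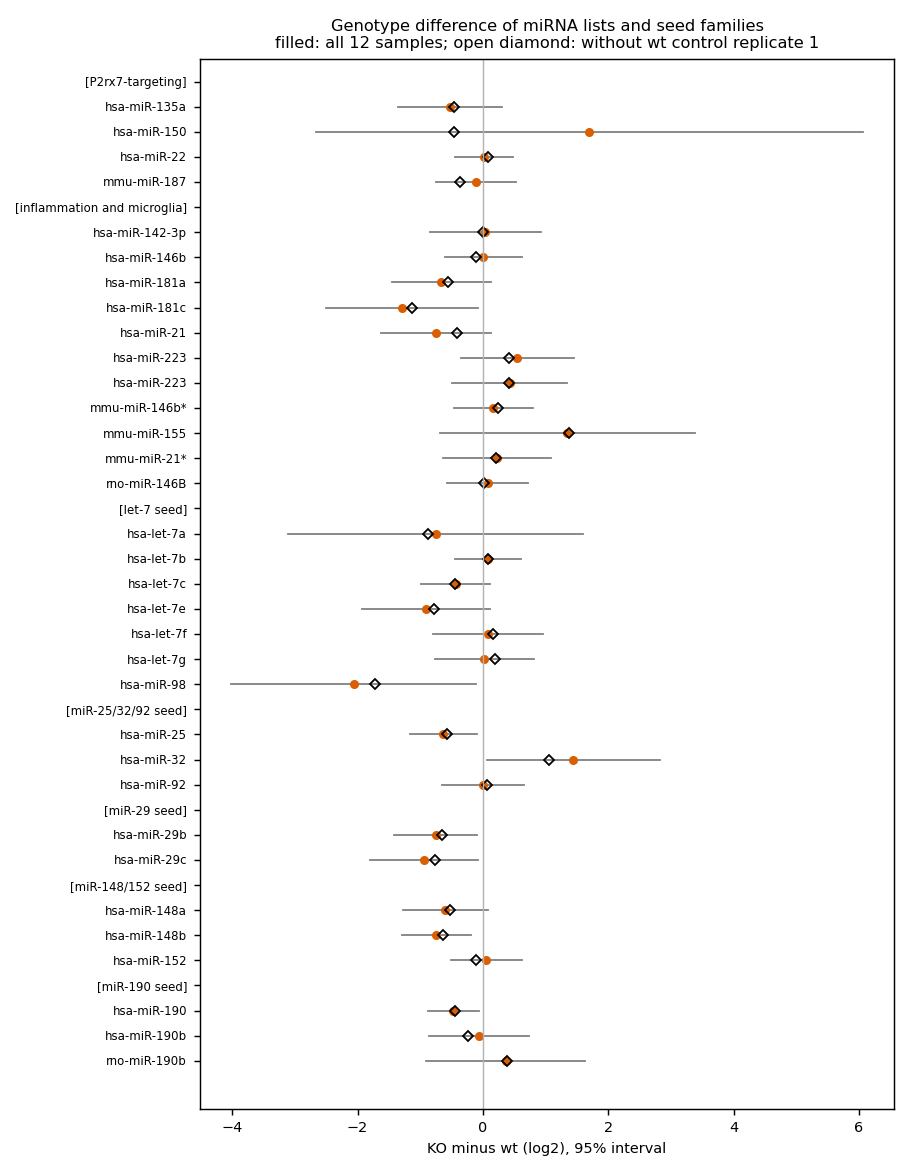
P2rx7-/- (KO) minus wt difference (log2) with its 95% interval from limma for the P2rx7-targeting list, the inflammation and microglia list (miR-150, in both lists, is drawn once) and families of one seed. Filled circles use all 12 samples and open diamonds leave out wt control replicate 1; miR-150 moves from 1.70 to -0.46, and all diamonds lie within the intervals.

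The lists that mark cell types gave median differences of 0.17 for 9 neuron-enriched, -0.18 for 4 oligodendrocyte, 0.05 for 2 red blood cell and -0.02 for 15 choroid plexus and epithelial assays. Without wt control replicate 1 these were 0.017, -0.37, 0.37 and 0.0093. The muscle, liver and pancreas list had 6 assays with a median of -0.16, and of -0.07 without that sample. The 1 endothelial and mural assay measured in all samples, miR-145, differed by 0.35, and by -0.19 without that sample. The imprinted miR-379 to miR-410 cluster, a large group of neuronal miRNAs, had 43 measured assays, 27 lower and 16 higher with a median of -0.02, and of -0.06 without that sample. The 65 passenger strands had a median of 0.04, and of 0.14 without it. Of the 335 assays, 264 could be matched by name to a position. Among these, the 16 assays whose miRNAs lie on chromosome 5 with P2rx7 had a median of -0.11, with 9 lower and 7 higher. Without that sample the median was -0.17. The number of members past the adjusted threshold was 0 in every list, as it was over all 335 miRNAs.

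snoRNA135 and snoRNA202, small nucleolar RNAs measured in repeated wells as controls, gave a scale for the smallest differences. snoRNA135 had a level of 4.10 ± 0.35 (SD, n = 6) in wt and 3.93 ± 0.18 (SD, n = 6) in P2rx7-/- samples, a difference of -0.17 (two-sided exact permutation test within treatment, p = 0.34). snoRNA202 had 8.31 ± 0.52 (SD, n = 6) and 8.53 ± 0.22 (SD, n = 6), a difference of 0.23 (two-sided exact permutation test within treatment, p = 0.355). For 17 miRNA names the plate held 2 assays, often designed for different species. Their genotype differences had the same sign in 8 of the 17 pairs and lay a median of 0.22 apart, between 0.05 and 0.96.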

How the data were processed

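Hippocampal RNA of 12 samples was measured by TaqMan OpenArray. The authors deposited raw Ct values (none above 28, no scaling applied) and a table of fold changes, a ratio to wt control replicate 1 that the authors scaled with the mean Ct of each sample (P2rx7-/- control replicate 2 carried the mean of P2rx7-/- control replicate 1). The ratio table served only as an alternative. All assigned columns were matched by name, and 0 were left unassigned. The software that called the Ct values is not given in the sources used here.

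miRNA assays with a Ct in all 12 samples (335 of 619; 34 further lines were controls) were kept, and the mean Ct of these was subtracted per sample. Levels are the negative of this value on a log2 scale. limma 3.58.1 (R 4.3.3) was fitted with genotype and treatment, and with 4 group means for the differences within treatment and the interaction, with Benjamini-Hochberg adjustment and calls below 0.05. FCs were averaged over the 6 P2rx7-/- samples and called above 1.5 and below 0.6. Single values were tested by exchanging genotype labels within treatment (400 arrangements). Python 3.11.15, numpy 2.4.6, pandas 2.3.3 and scipy 1.17.1 were used for the rest and matplotlib 3.10.9 for plots. The fit was tested on simulated data with normal noise and known genotype changes. The simulation had no treatment effect and no outlying sample, so it does not cover samples such as wt control replicate 1. p-values measure the spread between pools of mice. Each Ct is a single reading without a technical error of its own, and no read depth applies.

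Named miRNAs were the 12 with the lowest p, those separated under both treatments, the 5 highest and 5 lowest differences, the P2rx7-targeting and inflammation lists, and their other assays, strands and seed relatives. The members and lists were chosen with earlier results of these data known. Alternatives were other scalings, a Ct limit of 26, sample weights, robust and blocked fits, other FC rules and leaving out each sample.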

Additional observations from a re-analysis of the deposited data

Results flagged for a closer look

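For the 63 named assays the 6 samples of each genotype were searched for a lowest or highest sample far from the other 5 (126 groups of 6). This found 29 (23.0%). Chance gives about 1 in 20 groups, but many of these assays were named for large differences or for not overlapping, which single samples can set, and each group of 6 holds control and post-SE samples, so the 2 shares are not comparable. The levels are log2 values relative to the mean of the sample, and the causes were not tested.

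wt control replicate 1 accounted for 13 of the 29. It lay above the other 5 wt samples for miR-365 (5.42), miR-384-3p (2.03), miR-493-3p (5.82), miR-151-5p (8.84), miR-423-5p (5.41), miR-21 (5.11), let-7g (5.92) and miR-423-3p (0.18). It lay below them for miR-34a (-5.76), miR-376a (-6.11), miR-26a (-7.86), miR-150 (-6.76) and miR-187 (0.57).

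wt post-SE replicate 1 was apart for miR-467a (-0.59) and miR-489 (-8.37), where it was low, and for miR-142-3p (2.85) and let-7a (9.16), where it was high. wt post-SE replicate 2 was low for miR-330 (2.08).

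P2rx7-/- control replicate 1 was high for miR-489 (7.67), miR-1954 (7.98) and let-7a (6.62). P2rx7-/- control replicate 3 was low for miR-98 (-5.11) and miR-135a (0.58) and high for the mouse assay of miR-376a* (1.25). P2rx7-/- post-SE replicate 1 was low for miR-190 (-2.29) and miR-26a (5.14) and high for miR-142-3p (2.72). P2rx7-/- post-SE replicate 3 was high for both assays of miR-146b (5.66 and 5.12).

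The genotype difference had opposite directions in the control and the post-SE mice, without overlap between the genotypes in either, for 3 miRNAs (0.896% of 335), which were named after their values were seen. miR-27b* differed by -0.25 in control and 0.80 in post-SE mice, a change of 1.06. miR-30d* differed by -0.74 and 0.59, a change of 1.32. miR-1191 differed by -0.69 and 0.43, a change of 1.13. The interaction by limma had unadjusted p-values of 0.0241, 0.0158 and 0.0126 and an adjusted p of 0.851 for each.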

How the results depend on the processing

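The count of 0 miRNAs past the adjusted threshold of the pooled genotype test held under every scaling, the Ct limit of 26, the robust fit, the fit with 4 group means, the replicate block and each sample left out. The exception was the fit with sample weights, which called 1, miR-467a (-0.99, adjusted p 0.0429). The methods' t-test gave 14 at p below 0.05 and 0 after Benjamini-Hochberg adjustment (lowest 0.348). With the replicate number as a block, the pooled fit called 0 with 16 at an unadjusted p below 0.05 (lowest adjusted p 0.846). The deviations of same-numbered samples from their group means correlated above 0.1 in 4 of 18 pairs (range -0.23 to 0.28), so the numbers were not treated as pairing. Of these pairs, 3 joined replicate 3 of every group other than the wt control group (0.277, 0.271 and 0.251), and what those samples share was not tested.

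The 4 miRNAs lower and separated under both treatments became 0 with the median Ct, all detected assays, the snoRNAs and the deposited fold changes, 1 with quantile scaling and 2 with a Ct limit of 26. The number down under both treatments became 3 with the median Ct or the snoRNAs, and 2 with the miRNAs of the other 11 samples. The share with the same sign was 38.5% with the snoRNAs. FC calls were 39 up and 33 down with geometric means, 41 up and 5 down at thresholds of 2 and 0.5, and 8 down with the miRNAs of the other 11 samples. The causes were not tested. With each sample left out in turn, 7 to 26 were down, 4 to 13 separated lower, 0 to 1 separated higher, 0 to 6 lower and 0 to 1 higher for all samples of a genotype, 9 to 25 up in both, 2 to 11 down in both and 41.5% to 51.9% of the same sign. Counts of miRNAs without overlap can only stay or rise when a sample is left out. The median of the P2rx7-targeting list was -0.19 with sample weights. The difference in detected assays ranged from -6.08 to 10.2.

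Differences that changed sign were mostly near 0. With sample weights, miR-151-5p was 0.012, miR-423-5p 0.28, miR-26a -0.0082, miR-150 -0.20, miR-146b -0.24 and (rat assay) -0.049, let-7b -0.021, let-7f -0.17, miR-152 -0.10, miR-92 -0.0064, miR-29b* -0.14, the mouse assay of miR-376a* -0.0099 and the rat assay of miR-190b -0.12. With the deposited fold changes, miR-22 was -0.055, miR-142-3p -0.030, miR-146b -0.062, let-7g -0.050, miR-152 -0.018, miR-22* -0.033, miR-423-3p -0.048 and miR-92 -0.067. With all detected assays, miR-22 was -0.035, miR-142-3p -0.010, miR-146b -0.042, let-7g -0.030, miR-22* -0.014, miR-423-3p -0.029 and miR-92 -0.047. With the median Ct, miR-187 was 0.00062, miR-190b 0.050, the human assay of miR-376a* 0.067, miR-29c* 0.045 and miR-30d* 0.034. With quantile scaling, miR-22 was -0.063, miR-146b -0.042 and the human assay of miR-376a* 0.013. With the snoRNAs, miR-22 was -0.015, miR-146b -0.021, let-7g -0.0093, miR-423-3p -0.0081 and miR-92 -0.027. With the miRNAs of the other 11 samples, miR-151-5p was 0.0011, miR-26a -0.43, miR-150 -0.45, miR-146b -0.11, miR-152 -0.11 and miR-30d* 0.053.

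Leaving out each sample in turn, the sign changed for miR-26a (-0.44 to 2.95), miR-150 (-0.46 to 2.48), miR-146b (-0.15 to 0.16), its rat assay (-0.16 to 0.23), miR-152 (-0.11 to 0.18), miR-30d* (-0.24 to 0.12), miR-22 (-0.089 to 0.11), miR-190b (-0.27 to 0.19), miR-22* (-0.12 to 0.16), miR-376a* (human assay -0.17 to 0.087, mouse assay -0.13 to 0.23), miR-423-3p (-0.052 to 0.21), miR-92 (-0.22 to 0.15), miR-187 (-0.37 to 0.022), let-7g (-0.27 to 0.20), miR-21* (-0.14 to 0.39), miR-142-3p (-0.22 to 0.34), let-7b (-0.084 to 0.21), let-7f (-0.26 to 0.24), miR-29b* (-0.14 to 0.40), miR-29c* (-0.19 to 0.038), let-7a (-1.47 to 0.25) and miR-151 (-1.06 to 0.65).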

Other observations

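Assays that lacked a Ct in some samples were outside the comparison of the 335 miRNAs. Of 284 such assays, 130 were detected in more P2rx7-/- than wt samples, 112 in more wt than P2rx7-/- samples and 42 in equally many. The number of assays that differed by 4 or more samples was 3, and these were singled out after their values were seen. miR-218, a neuron-enriched and abundant miRNA, had a Ct in 6 P2rx7-/- and 2 wt samples, with Cts of 10.5 to 11.1, near the lowest Ct in the table, 10.1. The table lists no Ct below 10, so that a missing value at this level does not show that the miRNA was scarce. rno-miR-632 had a Ct in 6 P2rx7-/- and 2 wt samples, with Cts of 16.3 to 21.0. miR-217, a pancreas miRNA, had a Ct in 1 P2rx7-/- and 5 wt samples, with Cts of 15.7 to 24.4.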
